A study of Mus musculus with 6 samples.

Results

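Oxidative phosphorylation is carried out by 5 protein complexes of the inner mitochondrial membrane. Complexes I to IV pass electrons from nutrients to oxygen and, except for complex II, pump protons, and complex V uses the proton gradient to make ATP. The complexes are built from 2 genomes. A few hydrophobic core subunits of complexes I, III, IV and V are encoded by mitochondrial DNA (MT-encoded), and the remaining subunits, including all of complex II, are encoded in the nucleus. Mitochondrial genes are read from both DNA strands as long RNAs that are then cut into single messages, whereas each nuclear subunit has its own promoter. Normal prostate epithelium is known for secreting citrate rather than oxidizing it, and prostate cancer cells for oxidizing it again.

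A set of 53 genes of this pathway was followed in LAPC-4 xenograft tumors, out of 60649 genes in the count table and 24545 genes that were tested. The members were given as a list of human Ensembl identifiers beside symbols in the same order, so that for example NDUFA4 stands for ENSG00000189043, MT-CYB for ENSG00000198727, MT-ND4 for ENSG00000198886, ATP5F1C for ENSG00000165629 and NDUFV1 for ENSG00000167792. They comprise all 13 MT-encoded subunits and 40 nuclear subunits, and all 53 were read in every tumor and entered the test. The nuclear members are a chosen subset of the subunits known for each complex. NDUFA4 is named as a complex I gene but is known to be a subunit of complex IV, and was grouped there.

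LAPC-4 cells come from a human prostate cancer, grow in response to androgens and carry an androgen receptor without mutation. Cells were grown in the flank of male SCID mice (CB.17 scid/scid, 6 to 8 weeks old at purchase), a host without functional B and T cells. All mice ate the HiGI diet until tumors averaged 200 mm3. They were then single-housed and randomized to a HiGI or a LoGI Western diet, given ad libitum. Each mouse was sacrificed after a fast of some hours, once its tumor reached a set volume. Carbohydrate supplied 48% of the energy of both diets and came mainly from sucrose in the HiGI diet and from the high-amylose starch Hylon-VII in the LoGI diet. RNA was sequenced from 3 HiGI tumors (numbers 16, 20 and 26) and 3 LoGI tumors (numbers 19, 27 and 28), all separate tumors of the same cell line. The count tables hold between 18749813 and 21550812 reads per tumor. Markers of prostate epithelium and of other cell types were not analysed here, since the identifiers are not paired with symbols beyond the members.

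The first question was what share of the reads counted on human genes in each tumor came from these genes. Reads unique to mouse had been removed before counting, so the shares are not of all RNA in a tumor. In HiGI tumors 16, 20 and 26 the 13 MT-encoded members accounted for 7.38%, 7.19% and 7.56% of all reads (exact binomial 95% intervals 7.37% to 7.39%, 7.18% to 7.20% and 7.55% to 7.57%). In LoGI tumors 19, 27 and 28 their share was 8.11%, 8.41% and 8.26% (exact binomial 95% intervals 8.09% to 8.12%, 8.40% to 8.42% and 8.24% to 8.27%). Every LoGI tumor therefore lay above every HiGI tumor, with LoGI and HiGI means of 8.26% ± 0.150 (SD, n = 3) and 7.38% ± 0.186 (SD, n = 3). The intervals cover counting error only, and were far narrower than the spread between tumors.

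The 40 nuclear members accounted for a much smaller share. It was 0.740%, 0.822% and 0.797% of reads in HiGI tumors 16, 20 and 26, and 0.852%, 0.867% and 0.862% in LoGI tumors 19, 27 and 28. Here too the diets did not overlap, and the means were 0.786% ± 0.0419 (SD, n = 3) for HiGI and 0.860% ± 0.00724 (SD, n = 3) for LoGI. HiGI tumor 16 was the lowest tumor by this measure. Set against reads outside the MT-encoded genes only, the nuclear share was 0.849% ± 0.0447 (SD, n = 3) in HiGI and 0.938% ± 0.00941 (SD, n = 3) in LoGI tumors.

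**Figure D1:**
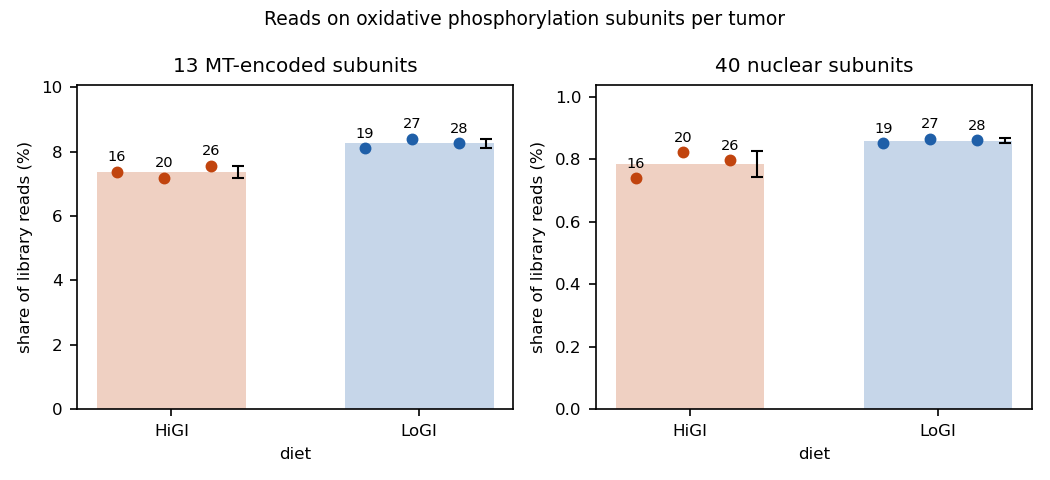
Share of library reads (%, vertical axes from 0) on the 13 MT-encoded subunits (left) and the 40 nuclear subunits (right), by diet. Points are tumors with their numbers, bars are means and error bars are SD (n = 3); all 3 LoGI points lie above all 3 HiGI points in both panels, from 8.11% upward against 7.56% or less on the left.

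The balance between the genomes was also examined. The log2 ratio of MT-encoded to nuclear reads was 3.32, 3.13 and 3.25 in HiGI tumors 16, 20 and 26 and 3.25, 3.28 and 3.26 in LoGI tumors 19, 27 and 28. The diets overlapped on this ratio, with means of 3.23 ± 0.0954 (SD, n = 3) and 3.26 ± 0.0145 (SD, n = 3). The smallest p that a two-sided exact permutation test can reach with these tumors is 0.1, and sums over the members were given no test. In bulk tumor RNA, a different number of cells of a type cannot be told apart from a different amount of RNA per cell. The share of MT-encoded reads also serves as a sign of RNA and tissue quality, and the part of quality in this difference was not tested.

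The next question was which subunits differed between diets. Reads were scaled to the size of each library (CPM) with TMM factors, which set tumors on a common scale from the bulk of genes, and compared by edgeR's quasi-likelihood test across all 24545 genes with Benjamini-Hochberg adjustment. Log2 fold changes are LoGI over HiGI throughout. All 53 members had a positive log2 fold change, from 0.00489 to 0.33, but 51 of 53 with library totals only, where MT-ATP8 and NDUFV1 turned negative. A positive value was found for 50.5% of all tested genes and for 69.0% of the 802 tested genes at least as highly read as the median member (the members among them included), so highly read genes as a whole leaned toward LoGI. The median was 0.16 over the members, 0.00335 over all tested genes and 0.061 over those 802 genes.

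A single member passed an adjusted p of 0.05, and it was higher in LoGI tumors. Among all tested genes 0.367% were called higher and 4.36% lower, and among the 802 highly read genes 1.12% and 0.998%. Of the 13069 tested genes at least as highly read as the lowest member, 0.604% were called higher and 4.48% lower. No member was called lower, and none reached the study's minimum log2 fold change of 1, which together with the adjusted p was passed by 0.0733% of tested genes in the higher and 3.38% in the lower direction (0.0612% and 2.62% of the 13069 genes). At an unadjusted p under 0.05 in the edgeR test, 21 members were higher and 0 lower, against 4.33% and 8.98% of all tested genes, 6.17% and 9.09% of the 13069 genes and 13.3% and 2.49% of the 802 highly read genes. The members' differences were therefore small and mostly not separable gene by gene from the spread between tumors.

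Their size was nevertheless bounded. The 95% intervals from the edgeR fit lay within a 2-fold change in either direction for all 53 members. So did those of 801 of the 802 highly read genes, 12431 of the 13069 genes and 14384 of all 24545 tested genes. The highest upper bound among the members was a log2 fold change of 0.53, held by NDUFV2, a subunit with between 46 and 55 reads per tumor. For 21 members the interval lay wholly above 0. These are the 21 members with an unadjusted p under 0.05, because the interval and the edgeR p come from the same F. For the remaining members an interval that includes 0 does not show that the diets were alike.

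**Figure D2:**
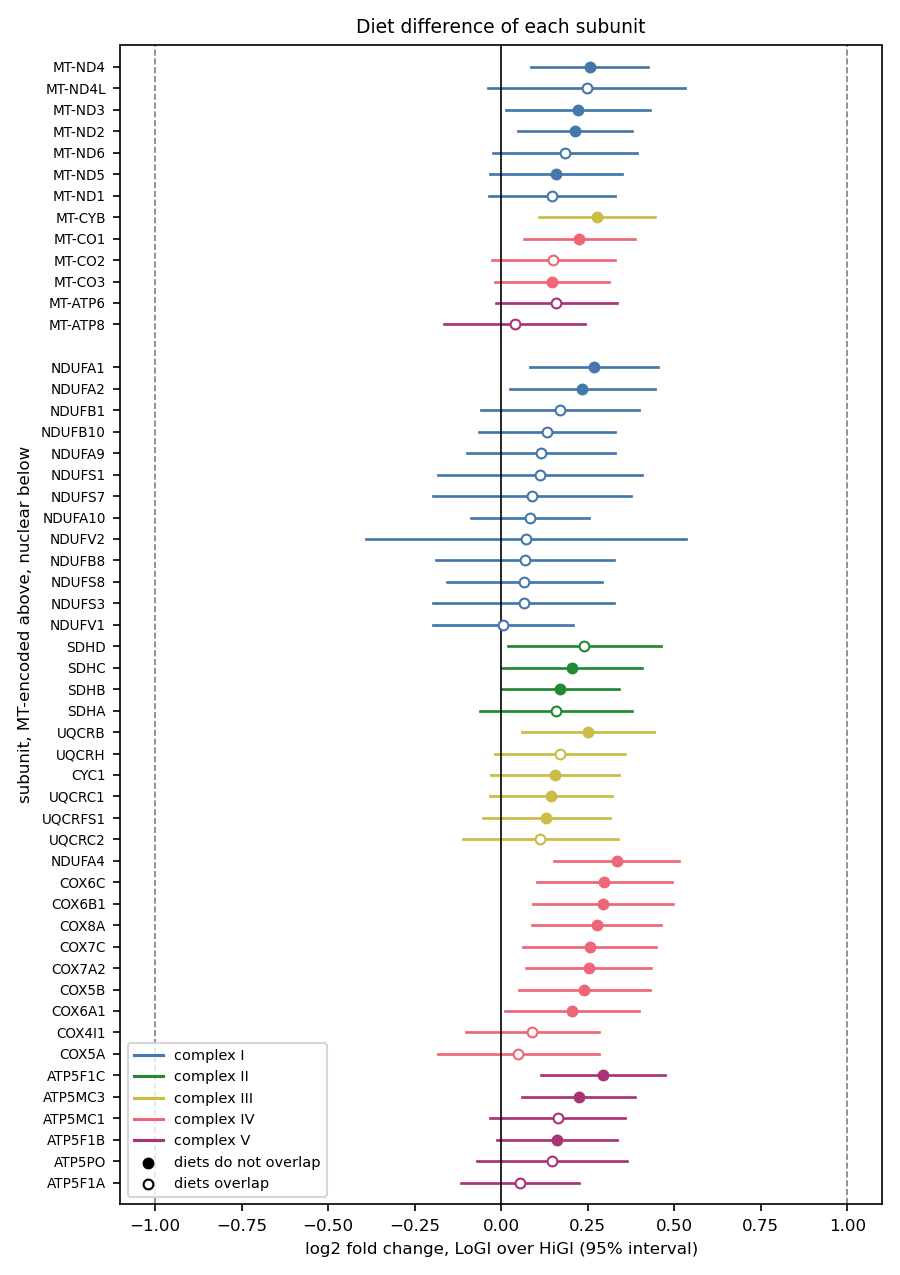
Log2 fold change, LoGI over HiGI (horizontal axis), of 52 subunits with 95% intervals from edgeR's quasi-likelihood fit (lines), MT-encoded above and nuclear below, colored by complex. Filled points mark subunits whose tumors do not overlap between diets and dashed lines a 2-fold change; all 52 points lie right of 0 and all their intervals between the dashed lines.

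The tumors of the diets did not overlap for 27 of the 53 members, and in each of these LoGI was higher. Among all tested genes 7.59% were so separated with LoGI higher and 10.9% with LoGI lower. These shares were 9.76% and 10.9% for the 13069 genes and 16.7% and 4.61% for the 802 highly read genes. Of the 27 members, 7 were MT-encoded and 20 nuclear, and the number was 20 with library totals only (5.26% of all tested genes) and 27 to 29 with the other scalings (up to 8.63% of all tested genes). In every one of the 53 members the lowest of the 6 tumors was a HiGI tumor, which held for 49.5% of all tested genes and 70.1% of the 802 genes. With upper-quartile normalization it held for 52 members, 52.6% of all tested genes and 74.1% of the 802 genes. With library totals only it held for 51 members, 43.5% of all tested genes and 60.6% of the 802 genes. The highest tumor was a LoGI tumor for 52 members, the exception being ATP5F1A, against 48.7% of all tested genes and 70.2% of the 802 genes. With upper-quartile normalization this held for 50 members, 51.7% of all tested genes and 73.3% of the 802 genes. With library totals only it held for 46 members, 42.6% of all tested genes and 55.6% of the 802 genes.

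**Figure D3:**
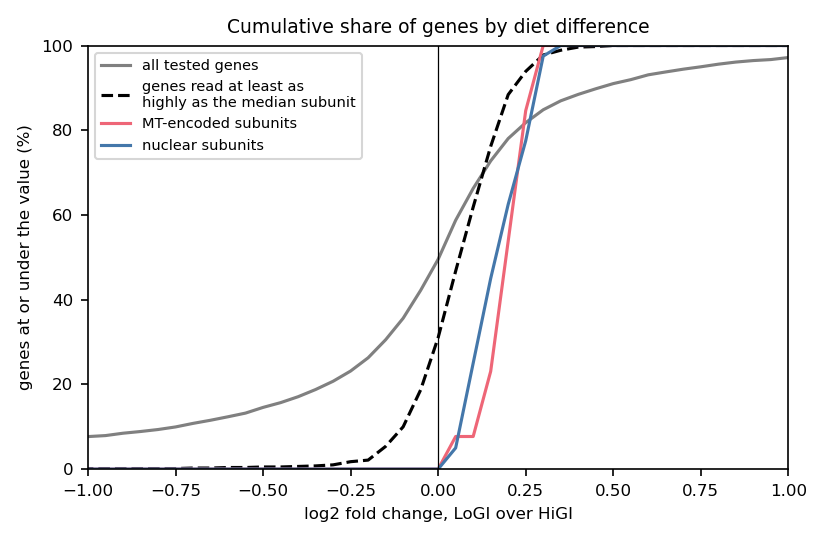
Cumulative share of genes (%, vertical axis) at or under each log2 fold change, LoGI over HiGI (horizontal axis, shown from -1 to 1), for MT-encoded subunits, nuclear subunits, all 24545 tested genes and the 802 genes read at least as highly as the median subunit. Both subunit curves start right of 0, with medians of 0.18 and 0.16, while the highly read genes have a median of 0.061.

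Among the MT-encoded members, 7 belong to complex I, which takes electrons from NADH, and all 7 form its proton-pumping membrane arm. MT-ND4 had 14009, 14959 and 15697 CPM in HiGI tumors 16, 20 and 26 and 17019, 17818 and 18469 CPM in LoGI tumors 19, 27 and 28. The diets did not overlap, and the log2 fold change was 0.26 (95% interval 0.09 to 0.42, adjusted p = 0.0959, edgeR quasi-likelihood). MT-ND2 had 2782, 2945 and 2928 CPM in the HiGI tumors against 3148, 3470 and 3414 CPM in the LoGI tumors, again with no overlap (log2 fold change 0.21, adjusted p = 0.188 in the same edgeR test). MT-ND3 was lowest in HiGI tumor 16, with 866 CPM there, 1103 and 1095 CPM in HiGI tumors 20 and 26, and 1127, 1174 and 1274 CPM in the LoGI tumors (log2 fold change 0.22, adjusted p = 0.327, edgeR). The lowest LoGI tumor thus came close to the highest HiGI tumors.

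MT-ND5 had 3944, 3165 and 3807 CPM in HiGI tumors 16, 20 and 26 and 4196, 3990 and 4003 CPM in LoGI tumors 19, 27 and 28. The diets did not overlap, although HiGI tumor 16 came close to LoGI tumor 27, and the log2 fold change was 0.16 (adjusted p = 0.508, edgeR) but 0.069 without HiGI tumor 20. MT-ND1 overlapped, with 3406, 3179 and 3484 CPM in HiGI tumors and 3406, 4066 and 3675 CPM in LoGI tumors (log2 fold change 0.15, adjusted p = 0.528, edgeR).

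MT-ND6 is the only one of the 13 encoded on the light strand of mitochondrial DNA. It had 1126, 1373 and 1228 CPM in HiGI tumors 16, 20 and 26 and 1358, 1284 and 1593 CPM in LoGI tumors 19, 27 and 28. The diets overlapped, and the log2 fold change of 0.18 (adjusted p = 0.472, edgeR quasi-likelihood) was within the range of the heavy-strand members. The RNA was poly(A)-selected, and whether that selection kept MT-ND6 as well as the heavy-strand messages was not tested. Its CPM may therefore not measure its level on a like footing.

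MT-ND4L varied more between tumors than any other member. It had 1374, 886 and 1251 CPM in HiGI tumors 16, 20 and 26 and 1444, 1518 and 1204 CPM in LoGI tumors 19, 27 and 28, with an SD within diets of 0.267 on the log2 scale against a median of 0.0957 over the MT-encoded members. Its log2 fold change was 0.25 with an interval from -0.04 to 0.53, 0.083 without HiGI tumor 20 and 0.38 without HiGI tumor 16. MT-ND4L and MT-ND4 are neighbors on 1 shared message and overlap, so that reads of either can be credited to the other. Per 100 reads on MT-ND4, the reads on MT-ND4L numbered 9.81, 5.92 and 7.97 for HiGI (tumors 16, 20 and 26) and 8.49, 8.52 and 6.52 for LoGI (tumors 19, 27 and 28). The lowest ratio of each diet was thus in HiGI tumor 20 and LoGI tumor 28, and the diets overlapped.

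MT-CYB is the mitochondrial core of complex III, which hands electrons from ubiquinol to cytochrome c. It had 5451, 5422 and 5955 CPM in HiGI tumors 16, 20 and 26 and 6510, 6800 and 7074 CPM in LoGI tumors 19, 27 and 28. The diets were clearly apart, with means of 5609 ± 300 CPM (SD, n = 3) and 6795 ± 282 CPM (SD, n = 3), a difference of 21.1%. This was the largest log2 fold change of the MT-encoded members (0.28, 95% interval 0.11 to 0.44), and its adjusted p was 0.0618 in edgeR's quasi-likelihood test.

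The 3 MT-encoded subunits of complex IV, cytochrome c oxidase, form its catalytic core. MT-CO1, which carries the site where oxygen is reduced, had 15504, 14209 and 14380 CPM in HiGI tumors 16, 20 and 26 and 17319, 17126 and 17120 CPM in LoGI tumors 19, 27 and 28. The LoGI tumors were close to each other and above all HiGI tumors (log2 fold change 0.23, 95% interval 0.06 to 0.39, adjusted p = 0.137, edgeR). MT-CO3 had 10361, 10885 and 11059 CPM in HiGI against 11280, 12321 and 12189 CPM in LoGI tumors, also without overlap (log2 fold change 0.15, adjusted p = 0.458, edgeR). MT-CO2, which receives electrons from cytochrome c, overlapped, with 7628, 8235 and 8819 CPM in HiGI and 8538, 9276 and 9582 CPM in LoGI tumors (log2 fold change 0.15, adjusted p = 0.496, edgeR).

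MT-ATP6 and MT-ATP8 belong to the membrane part of complex V, the ATP synthase, and overlap on 1 shared message. MT-ATP6, part of the proton channel, had 4505, 4777 and 5189 CPM in HiGI tumors 16, 20 and 26 and 5102, 5465 and 5591 CPM in LoGI tumors 19, 27 and 28. MT-ATP8 had 459, 393 and 497 CPM in the HiGI tumors and 439, 499 and 447 CPM in the LoGI tumors. The diets overlapped for both, and MT-ATP8 had the smallest log2 fold change of the MT-encoded members at 0.040 (95% interval -0.16 to 0.24), against 0.16 for MT-ATP6. Per 100 reads on MT-ATP6, the reads on MT-ATP8 numbered 10.2, 8.22 and 9.57 for HiGI (tumors 16, 20 and 26) and 8.58 ± 0.572 (SD, n = 3) for LoGI, again with overlap.

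Within the MT-encoded reads the makeup was much alike in the diets. MT-CO1 and MT-ND4 together held the most reads, at 20.2% ± 1.35 and 20.5% ± 0.724 (SD, n = 3) of MT-encoded reads in HiGI tumors and 20.5% ± 0.768 and 21.2% ± 0.313 (SD, n = 3) in LoGI tumors. For 11 of the 13 genes the share of MT-encoded reads overlapped between diets. The exceptions were MT-ND4 and MT-CYB, both higher in LoGI, and the share of MT-CYB was 7.70% ± 0.171 (SD, n = 3) in HiGI and 8.11% ± 0.132 (SD, n = 3) in LoGI tumors. Genes differ in length, so these shares of reads do not rank the genes by number of molecules.

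**Figure D4:**
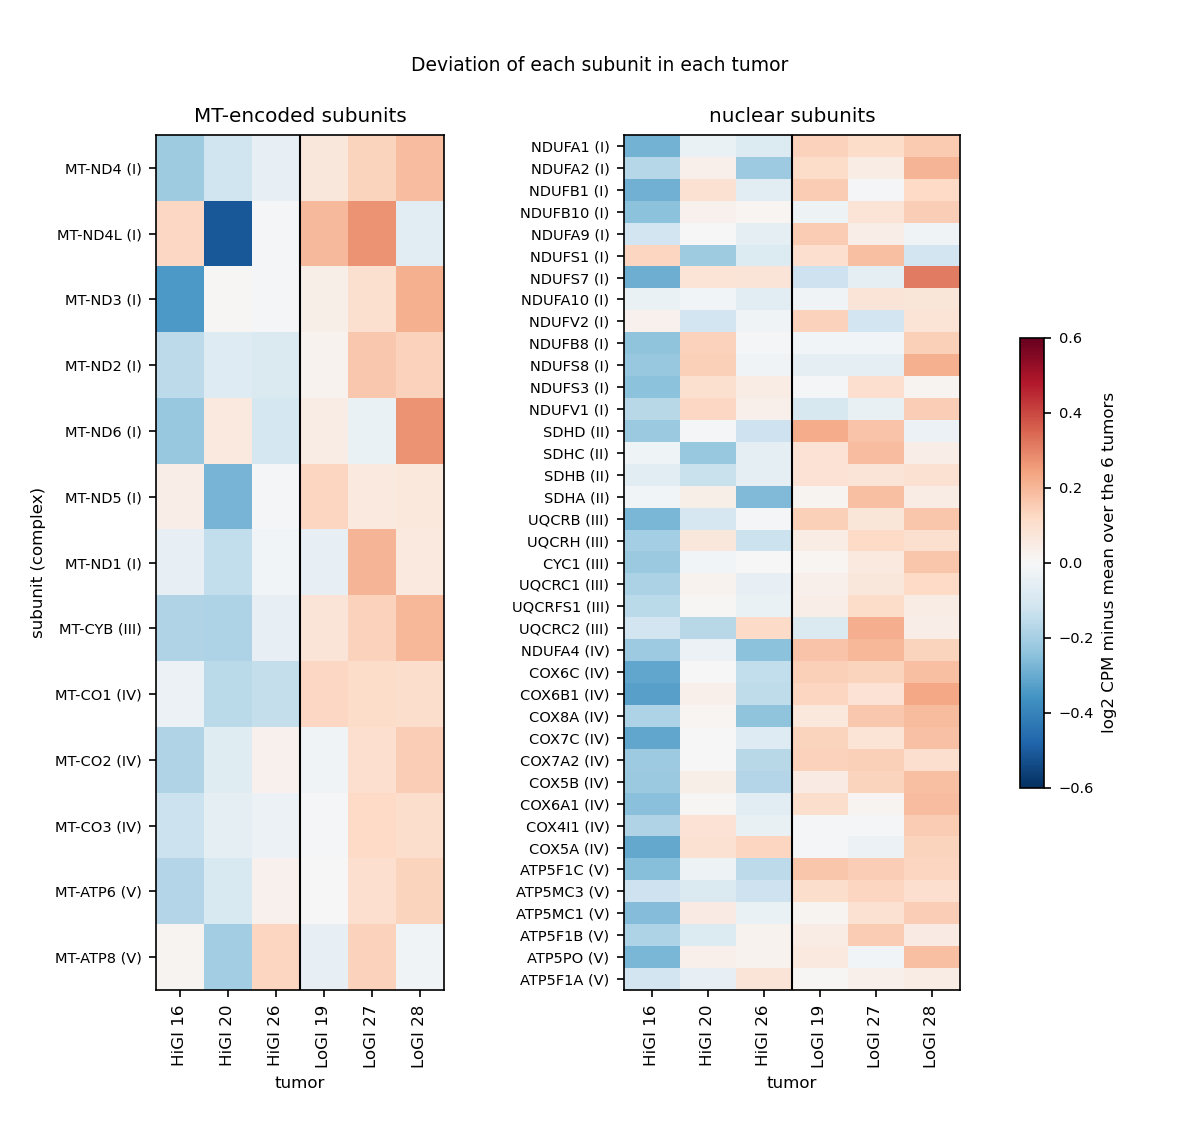
Log2 CPM of 52 subunits (rows, with its complex) in each tumor (columns) minus the mean over the 6 tumors, red above and blue below that mean, for MT-encoded (left) and nuclear subunits (right). The black line separates HiGI from LoGI tumors; HiGI tumor 16 was the lowest for 29 of 40 nuclear subunits, and the darkest cell, at -0.51, is MT-ND4L in HiGI tumor 20.

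The nuclear members of complex IV had the highest median log2 fold change of the nuclear groups, 0.25 over 10 genes. For 8 of the 10 LoGI was higher without overlap, against 7.59% of all tested genes and 16.7% of the 802 highly read genes. The differences between complexes were not tested. NDUFA4 was the called member. It had 194, 221 and 190 CPM in HiGI tumors 16, 20 and 26 and 254, 260 and 248 CPM in LoGI tumors 19, 27 and 28. The LoGI tumors lay close together and all above the HiGI tumors, with means of 202 ± 16.4 CPM (SD, n = 3) and 254 ± 6.01 CPM (SD, n = 3). NDUFA4 was 1.26-fold higher in LoGI than in HiGI tumors (log2 fold change 0.33, 95% interval 0.15 to 0.51, adjusted p = 0.0309, edgeR quasi-likelihood).

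The call of NDUFA4 depended on the settings. With library totals only the called member was MT-CYB (adjusted p = 0.0481) in place of NDUFA4 (adjusted p = 0.0547), both in the edgeR test. For NDUFA4 the adjusted p was between 0.101 and 0.133 once HiGI tumor 16 or 26 or LoGI tumor 19 or 27 was omitted, again in the edgeR test, while its log2 fold change stayed between 0.29 and 0.40. The number of called members was 3 by the DESeq2 Wald test, where MT-CYB and ATP5F1C joined NDUFA4 and 0.542% of all tested genes were called higher. It was 6 when the edgeR test took in every gene read at least once, where MT-ND4, COX6B1 and COX6C were added and 0.653% of all genes were called higher. It was 5 without HiGI tumor 20, where ATP5F1C, COX6B1, COX6C and COX8A joined NDUFA4 and 0.274% of all genes were called higher. It was 0 when HiGI tumor 16 or 26 or LoGI tumor 19 or 27 was omitted, with between 0.0882% and 0.538% of all genes called higher.

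Around the catalytic core of complex IV sit small nuclear subunits that stabilize it or tune its activity. COX6C had 132, 165 and 148 CPM in HiGI tumors 16, 20 and 26 and 181, 180 and 186 CPM in LoGI tumors 19, 27 and 28 (log2 fold change 0.30, adjusted p = 0.0901, edgeR). COX6B1, which faces the cytochrome c side, had 254, 325 and 286 CPM in HiGI and 348, 338 and 374 CPM in LoGI tumors (log2 fold change 0.29, adjusted p = 0.117, edgeR). Both were lowest in HiGI tumor 16, and in neither did the diets overlap. COX8A had 323, 369 and 310 CPM in HiGI against 384, 411 and 419 CPM in LoGI tumors (log2 fold change 0.28, adjusted p = 0.107, edgeR). COX7C, COX7A2, COX5B and COX6A1 were also without overlap, with log2 fold changes of 0.26, 0.25, 0.24 and 0.20 and adjusted p of 0.17, 0.136, 0.197 and 0.333 in the edgeR test.

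The remaining nuclear members of complex IV, COX4I1 and COX5A, are subunits that join the core at an early step of its assembly. COX5A had 103, 136 and 139 CPM in HiGI tumors 16, 20 and 26 and 127, 124 and 140 CPM in LoGI tumors 19, 27 and 28. HiGI tumor 16 alone lay low, and the diets otherwise shared one range (log2 fold change 0.049, 95% interval -0.18 to 0.28). Without that tumor the log2 fold change of COX5A was -0.078. COX4I1 also overlapped.

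The nuclear members of complex I had the lowest median of the nuclear groups, 0.10 over 14 genes. Of these genes 3 (21.4%) did not overlap between diets, with LoGI higher. That share was close to the 16.7% of the 802 highly read genes, and was 7.59% of all tested genes. Core subunits of complex I bind NADH, flavin and iron-sulfur clusters or take part in ubiquinone reduction. The 7 core subunits had a median log2 fold change of 0.072, and none reached an unadjusted p of 0.05 in the edgeR test. That median is the value of NDUFV2, which had few reads (46 to 55 per tumor) and an interval from -0.39 to 0.53. NDUFV1, the subunit that binds NADH, had 360, 442 and 414 CPM in HiGI tumors 16, 20 and 26 and 379, 393 and 448 CPM in LoGI tumors 19, 27 and 28. The diets shared the same range, with means of 405 ± 41.3 CPM (SD, n = 3) and 407 ± 36.3 CPM (SD, n = 3), and the interval of the log2 fold change ran from -0.20 to 0.21.

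The 7 accessory subunits of complex I, which are needed for its assembly and stability, had a median log2 fold change of 0.13 and a range from 0.068 to 0.27. NDUFA1, a subunit of the membrane arm, had 144, 171 and 166 CPM in HiGI tumors 16, 20 and 26 and 193, 189 and 196 CPM in LoGI tumors 19, 27 and 28. The diets did not overlap (log2 fold change 0.27, 95% interval 0.08 to 0.45, adjusted p = 0.12, edgeR). NDUFA2 was also without overlap, with 49.9, 57.4 and 48.2 CPM in HiGI and 60.6, 57.8 and 64.6 CPM in LoGI tumors, where HiGI tumor 20 and LoGI tumor 27 nearly met (log2 fold change 0.23, adjusted p = 0.286, edgeR).

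Complex II, succinate dehydrogenase, is an enzyme of the citric acid cycle as well and has 4 subunits, all of which were measured. SDHB, which holds the iron-sulfur clusters, had 125, 119 and 126 CPM in HiGI tumors 16, 20 and 26 and 139, 138 and 140 CPM in LoGI tumors 19, 27 and 28. These values were tight within each diet and did not overlap (log2 fold change 0.17, adjusted p = 0.371, edgeR). The membrane anchors SDHC and SDHD had log2 fold changes of 0.20 and 0.24 (adjusted p = 0.367 and 0.309, edgeR), without overlap for SDHC and with overlap for SDHD. SDHA, the flavin-binding subunit, overlapped and had 47.7 ± 5.15 CPM (SD, n = 3) in HiGI and 53.2 ± 3.24 CPM (SD, n = 3) in LoGI tumors.

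In complex III the 6 nuclear members had a median log2 fold change of 0.15 (0.087 without HiGI tumor 16). For 4 of the 6 LoGI was higher without overlap, against 7.59% of all tested genes and 16.7% of the 802 highly read genes. UQCRB, which lies at the ubiquinone site, had 101, 114 and 121 CPM in HiGI tumors 16, 20 and 26 and 134, 128 and 137 CPM in LoGI tumors 19, 27 and 28 (log2 fold change 0.25, 95% interval 0.06 to 0.44, adjusted p = 0.175, edgeR). CYC1, or cytochrome c1, had 314, 363 and 367 CPM in HiGI against 371, 382 and 412 CPM in LoGI tumors (log2 fold change 0.16, adjusted p = 0.497, edgeR). The core protein UQCRC1 and the Rieske iron-sulfur protein UQCRFS1 were also separated, with log2 fold changes of 0.14 and 0.13 (adjusted p = 0.523 and 0.607, edgeR). The other core protein, UQCRC2, overlapped and was highest in LoGI tumor 27 (85.9 CPM) and next in HiGI tumor 26 (80.1 CPM).

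In complex V the 6 nuclear members had a median log2 fold change of 0.16 (0.095 without HiGI tumor 16). The largest value belonged to ATP5F1C, the gamma subunit of the rotating stalk, with 158, 185 and 169 CPM in HiGI tumors 16, 20 and 26 and 212, 209 and 207 CPM in LoGI tumors 19, 27 and 28. The diets did not overlap (log2 fold change 0.29, 95% interval 0.11 to 0.47, adjusted p = 0.0658, edgeR). The subunits of the catalytic head that the stalk turns in, alpha and beta, were lower on this measure. The beta subunit ATP5F1B had 1104, 1186 and 1274 CPM in HiGI and 1293, 1393 and 1299 CPM in LoGI tumors, without overlap (log2 fold change 0.16, adjusted p = 0.437, edgeR). The alpha subunit ATP5F1A had 572, 598 and 651 CPM in HiGI and 622, 632 and 638 CPM in LoGI tumors (log2 fold change 0.055, 95% interval -0.12 to 0.22). Its highest tumor was HiGI tumor 26.

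ATP5MC1 and ATP5MC3 are separate genes that encode the same mature c subunit of the proton-driven ring. ATP5MC3 had 188, 194 and 188 CPM in HiGI tumors 16, 20 and 26 and 221, 225 and 220 CPM in LoGI tumors 19, 27 and 28, the narrowest spread within diets of all members (SD 0.0198 on the log2 scale). Its log2 fold change was 0.22 (95% interval 0.06 to 0.39, adjusted p = 0.149, edgeR). ATP5MC1 overlapped between the diets.

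**Figure D5:**
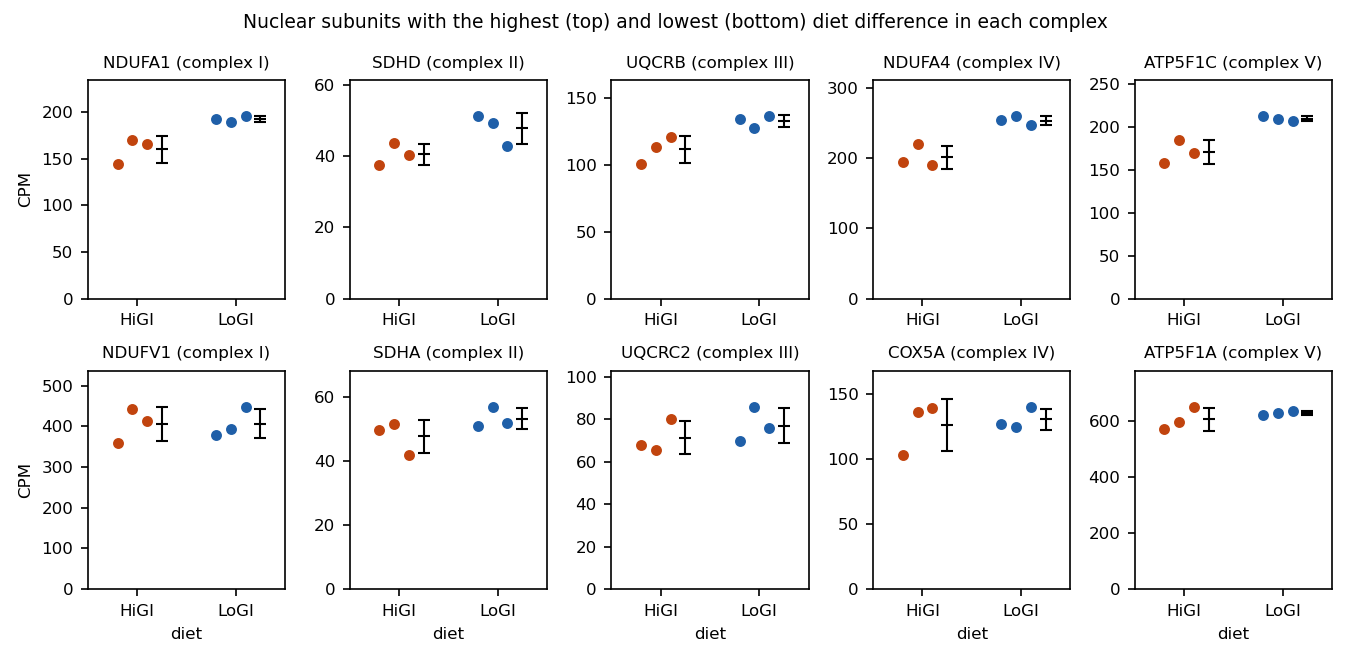
CPM (vertical axes from 0) of the nuclear subunit with the highest log2 fold change in each complex (top row) and the lowest (bottom row), by diet. Points are tumors and the marks beside them are mean and SD (n = 3); the diets are apart in the top row except for SDHD and overlap in the bottom row, as for NDUFV1 with means of 405 and 407 CPM.

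For 14 further nuclear members, NDUFV2, COX4I1 and ATP5MC1 among them, the diets overlapped, with log2 fold changes from 0.065 to 0.17. Many nuclear subunits have processed pseudogenes, and mitochondrial genes have nuclear copies, so that the counting could split reads between near-identical sequences. How many reads of the members were so shared, or were also alike in mouse, was not tested.

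A last question was whether the members deviated together in a tumor. HiGI tumor 16 was the lowest of the 6 tumors for 29 of the 40 nuclear members and for 7 of the 13 MT-encoded members. HiGI tumor 20 was the lowest for the other 6 MT-encoded and for 6 nuclear members. Some HiGI tumor was the lowest for 49.5% of all tested genes and 70.1% of the 802 highly read genes. How often that was HiGI tumor 16 was not counted, so whether its low values are particular to the members was not tested. The median log2 deviation of the nuclear members from their mean over the 6 tumors was -0.22, 0.0048 and -0.054 in HiGI tumors 16, 20 and 26 and 0.056, 0.085 and 0.13 in LoGI tumors 19, 27 and 28. For the MT-encoded members it was -0.16, -0.12 and -0.017 in the HiGI tumors and 0.036, 0.12 and 0.14 in the LoGI tumors. HiGI tumor 20 was therefore near the mean in its nuclear members and below it in its MT-encoded members. Without HiGI tumor 16 the median log2 fold change was 0.11 over the nuclear members in place of 0.16, and 47 of the 53 members had a positive value. For 17 of the members described with values, the log2 fold change moved by over 1.5 times when a single tumor was omitted, for 12 of them without HiGI tumor 16. MT-ND3 then had 0.12 in place of 0.22 and CYC1 0.087 in place of 0.16. MT-ND6 had 0.089 in place of 0.18 without LoGI tumor 28. The spread within diets was not unusual for highly read genes. The median SD on the log2 scale was 0.0957 for MT-encoded members, 0.108 for nuclear members and 0.103 for the 802 highly read genes.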

How the data were processed

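Tumor RNA was isolated, poly(A)-selected with a stranded kit and sequenced as single-end reads of 75 bp. The authors mapped reads to human (GRCh38.p13) and mouse (GRCm38.p6) with BBMap, removed reads unique to mouse, aligned the rest to human with STAR and quantified genes with RSEM. They deposited whole-number counts per gene, not normalized, and how RSEM estimates became whole numbers is not given in the sources used here. The sample records name mouse as the organism. Columns were matched to tumors by title, and 0 were left unmatched.

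Genes with at least 10 reads over the 6 tumors were tested with edgeR 4.0.16 in R 4.3.3 (TMM, glmQLFit and glmQLFTest, diet as the only term, Benjamini-Hochberg over all tested genes). Intervals came from the fold change, its F and the total degrees of freedom. TMM factors were 1.034, 1.0055 and 1.0034 in HiGI tumors 16, 20 and 26. In LoGI tumors 19, 27 and 28 they were 1.0026, 0.992 and 0.964. Every HiGI factor was thus above every LoGI factor, which lowers HiGI CPM relative to LoGI CPM. Library totals lay between 18749813 and 21550812 reads. Other settings tried were upper-quartile factors, DESeq2 size factors, library totals only, normalization without the MT-encoded genes, the DESeq2 1.42.0 Wald test, all genes with at least 1 read, filterByExpr, and leaving out each tumor.

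The members, lists and tests were chosen with earlier results of these data known. Members described with values were all MT-encoded ones, every nuclear one called or without overlap between diets, and the highest and lowest log2 fold change of each complex. Of these, 1 nuclear member is not reported singly here and entered the counts and medians only. NDUFV2 was named for its interval after its values were seen. The placing of NDUFA4, the grouping of complex I into core and accessory subunits, the counts of members without overlap or with a positive value and of all genes called under other settings, and the comparison with the 802 highly read genes were added after the counts were seen. Other pathway genes, cell type markers, gene lengths and sequences were not analysed here, since the names used here pair no further human identifiers with symbols.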

Additional observations from a re-analysis of the deposited data

How the results depend on the processing

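One member was called higher in LoGI tumors (1), a number that became 3 with the DESeq2 Wald test and 6 when every gene read at least once was tested, and ran from 0 to 5 as single tumors were omitted. Calls among all tested genes ranged from 0.0882% to 0.653% higher. The cause was not tested. No member was called lower, or at a fold of 2 or more, in any of these fits. Directions reversed for MT-ATP8 (-0.000633) and NDUFV1 (-0.036) with library totals only. As single tumors were omitted, log2 fold changes ran from -0.048 to 0.12 for MT-ATP8, from -0.074 to 0.072 for NDUFV1 and from -0.078 to 0.13 for COX5A, the number of members with a positive value from 47 to 53, and the number without overlap from 27 to 36. Of all tested genes, between 11.1% and 14.3% were then without overlap and higher in LoGI, against 7.59% with all tumors. The median ran from 0.16 to 0.21 for the MT-encoded members, from 0.053 to 0.17 for the MT-encoded pair of complex V (lowest without HiGI tumor 20), from 0.11 to 0.19 for the nuclear members, from 0.087 to 0.19 for the nuclear members of complex III and from 0.095 to 0.22 for those of complex V, the last 3 lowest without HiGI tumor 16. The LoGI minus HiGI difference in the log2 ratio of MT-encoded to nuclear reads was 0.032 and ran from -0.019 to 0.075. The median over all genes was -0.037 with library totals only, against 0.00335. With library totals only it was 0.14 over the MT-encoded and 0.12 over the nuclear members, against 0.18 and 0.16 with TMM. No paired analysis was possible because the labels number no tumors alike across diets.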
